A study of Mus musculus with 6 samples.

Results

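The genes described here are 39 interferon-stimulated genes of the mouse, of 31053 genes measured. They were taken by symbol from a fixed list, which was made with earlier results of these data known: Ifit1, Ifit2, Ifit3, Ifit3b, Isg15, Usp18, Herc6, Oasl1, Oasl2, Oas1a, Oas2, Oas3, Irf7, Irf9, Stat2, Ifih1, Ddx58, Dhx58, Zbp1, Ifi203, Ifi213, Rsad2, Cmpk2, Mx1, Isg20, Bst2, Ifitm3, Slfn1, Slfn2, Slfn5, Slfn8, Ifi27l2a, Xaf1, Rtp4, Trim30a, Ifi35, Ifi44, Ifi47 and Parp14. All 39 were found in the feature list, and each had at least 135 unique molecular identifiers (UMIs, each standing for 1 captured RNA molecule) in the cells kept. The cells were splenocytes of male C57BL/6 mice in 3 groups, each a pool of 5 mice: a young group at 3 months of age and an aged group at 20 months that both received saline, and a second aged group, also at 20 months, that received recombinant mouse platelet factor 4 (PF4, 5 µg/mL). All groups received 8 injections of 100 µL into the tail vein over 24 days. Red blood cells were lysed, and RNA was counted together with 34 surface antibodies by single-cell CITE-seq.

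Each group was 1 library made from pooled animals, so the spread between mice was not measured. The deposited matrix joins the libraries and marks each barcode with the suffix 1, 2 or 3, and no label or method states which group a suffix stands for. The libraries are therefore named 1, 2 and 3, no difference below is a difference between ages or treatments, and no test between groups was possible. Of 29005 barcodes, 20161 were kept (4199, 7511 and 8451 in libraries 1, 2 and 3), with median depths of 3625 to 3765 UMIs. Cells were clustered without the interferon-stimulated genes and named from marker genes as 12 classes, of which B-like cells were the most frequent (10764), followed by T-like cells (5825). The libraries differed in their mixture: 414 of 484 erythroid-like cells and 373 of 731 neutrophil-like cells were in library 1. Values below are counts per 1000000 UMIs of the stated cells (CPM), with exact Poisson 95% intervals, and shares of cells have exact binomial (Clopper-Pearson) 95% intervals. Both cover counting error only.

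Type I interferons (interferon alpha and beta) bind the receptor chains IFNAR1 and IFNAR2, whose kinases JAK1 and TYK2 activate the complex ISGF3. This complex, which holds STAT2 and IRF9, binds the interferon-stimulated response element (ISRE) in promoters of many interferon-stimulated genes. Interferon gamma acts through another element, the gamma-activated site (GAS), and shares many targets with type I interferon. In the spleen, plasmacytoid dendritic cells are known for large interferon alpha output after viral infection, and many immune cells carry a low, tonic level of these genes without infection.

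The promoters of these genes are shown first because the response element is a sequence feature that part of them share. A RefSeq promoter (build GRCm38.p6, 250 bases before to 50 after the start of transcription) was found for 31 of the 39 genes. The core of the ISRE, GAAA, any 2 bases and GAAA on either strand, was in the promoters of 17 of the 31 (54.8%), and 3.98% of 19407 promoters in all held it. At least 2 overlapping or separate cores were in 7 of the 31 (22.6%) against 0.289% of all promoters. The core of the GAS, TTC, any 3 bases and GAA, was in 6 of the 31 (19.4%) against 9.28% of all promoters. A match is a string of letters and not a measured binding site. The stretches below are those of genes whose values recur in the text, written in the direction of transcription with the ISRE cores in capitals. The promoters of Ifit1, Ifit3, Isg15 and Bst2 (tetherin) hold 2 or 3 cores each, and those of Rsad2, Oas3, Slfn5, Slfn8 and Stat2 hold 1.
Isg15, chr4:156200855-156200916, minus strand: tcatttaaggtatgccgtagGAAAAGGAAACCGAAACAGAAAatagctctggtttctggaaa
Ifit1, chr19:34640765-34640833, plus strand: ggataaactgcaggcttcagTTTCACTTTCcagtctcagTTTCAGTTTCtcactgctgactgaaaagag
Ifit3, chr19:34583353-34583436, plus strand: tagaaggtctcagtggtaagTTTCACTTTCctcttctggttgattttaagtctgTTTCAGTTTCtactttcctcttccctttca
Bst2, chr8:71537567-71537622, minus strand: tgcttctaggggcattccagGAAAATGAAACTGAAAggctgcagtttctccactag
Rsad2, chr12:26456543-26456592, minus strand: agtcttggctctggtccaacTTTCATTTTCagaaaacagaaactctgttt
Oas3, chr5:120777705-120777754, minus strand: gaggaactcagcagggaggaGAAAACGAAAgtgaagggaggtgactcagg
Slfn5, chr11:82951927-82951976, plus strand: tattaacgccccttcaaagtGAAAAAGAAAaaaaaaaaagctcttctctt
Slfn8, chr11:83020829-83020878, minus strand: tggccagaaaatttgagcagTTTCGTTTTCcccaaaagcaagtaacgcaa
Stat2, chr10:128270256-128270305, plus strand: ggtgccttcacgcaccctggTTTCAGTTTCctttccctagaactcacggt

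The stretch of Ifit3b, a copy of Ifit3 on the same chromosome (chr19:34607749-34607832), is the same 84 bases as that of Ifit3. The last core lies 56 bases before the start in Isg15, 75 in Ifit1, 110 in Rsad2 and 212 in Stat2. Genes with a promoter but no core in it included Ifit2, Irf7, Irf9, Isg20, Oasl1, Oasl2, Cmpk2, Slfn1 and Slfn2.

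By number of UMIs the list was led by a few genes that most splenocytes carry. Ifi27l2a, which encodes a small hydrophobic protein, had 35409 UMIs and 481, 304 and 447 CPM in libraries 1, 2 and 3. Slfn2, a Schlafen gene known for keeping T cells quiescent, had 33940 UMIs at 389, 361 and 406 CPM. Ifi203, of the HIN-200 family of DNA-binding proteins, had 31604 UMIs at 268, 353 and 416 CPM. These 3 genes are therefore present in every library at a level that varies by 1.58-fold at most. Ifitm3, which blocks fusion of viruses in endosomes, had 19903 UMIs and stood at 448, 144 and 175 CPM. Parp14, an ADP-ribosyltransferase, had 118, 118 and 129 CPM, and Slfn1 114, 78.6 and 92.9 CPM.

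Trim30a stood at 84.5, 83.3 and 103 CPM, Bst2, which tethers budding virions to the membrane, at 85.8, 72.2 and 89.3 CPM, and Irf9, the DNA-binding part of ISGF3, at 74.9, 71.3 and 89.5 CPM. The Schlafen gene Slfn8 had 54.6, 74.2 and 96.8 CPM, the GTPase gene Ifi47 70.5, 76.5 and 81.6 CPM, and Slfn5 67.6, 65.7 and 84.3 CPM. At the other end Ifi44 had 135 UMIs, Oas1a 362, Oas2 366 and Ifit3b 375. The 4 IFIT genes, whose proteins bind foreign RNA ends, each had between 375 and 1459 UMIs. Counts of 3′ tags do not scale with transcript length. Near-identical copies limit some of them: of the 50-base stretches in the last 500 bases, 56.1% of those of Oas1a are shared with Oas1g, 25.5% of those of Slfn8 with other genes, 24.5% of those of Herc6, 19.9% of those of Trim30a, 18.7% of those of Ifi213, 14.9% of those of Ifit3 (with Ifit3b) and 13.97% of those of Ifitm3, so these counts are uncertain.

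The classes were not equal in these genes. Myeloid cells, plasmacytoid-like cells and erythroid-like cells held most of the maxima: 10 of 39 genes were highest in neutrophil-like cells, 9 in plasmacytoid-like cells, 8 in monocyte-like cells and 5 in erythroid-like cells. Of all genes, 6.45%, 14.01%, 7.23% and 8.04% were highest in these classes. Library by library, neutrophil-like cells held 8, 9 and 11 maxima and monocyte-like cells 8, 8 and 11, while in library 1 the 10 platelet-like cells held 18. B-like, NK-like, dendritic-like, macrophage-like and platelet-like cells held 1 each, T-like cells 2, and plasma-like and basophil-like cells none. In 7 of the 10 in neutrophil-like cells the interval was apart from that of the next class, and 3.34% of 10115 genes with enough counts met that rule. The same held for 5 of the 8 in monocyte-like cells (2.35% of all genes), for 4 of the 9 in plasmacytoid-like cells (2.33%) and for 3 of the 5 in erythroid-like cells (4.79%). The 40 plasmacytoid-like cells are few, and their intervals are wide. The heat map of the 39 genes over the 12 classes shows these maxima.

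**Figure D1:**
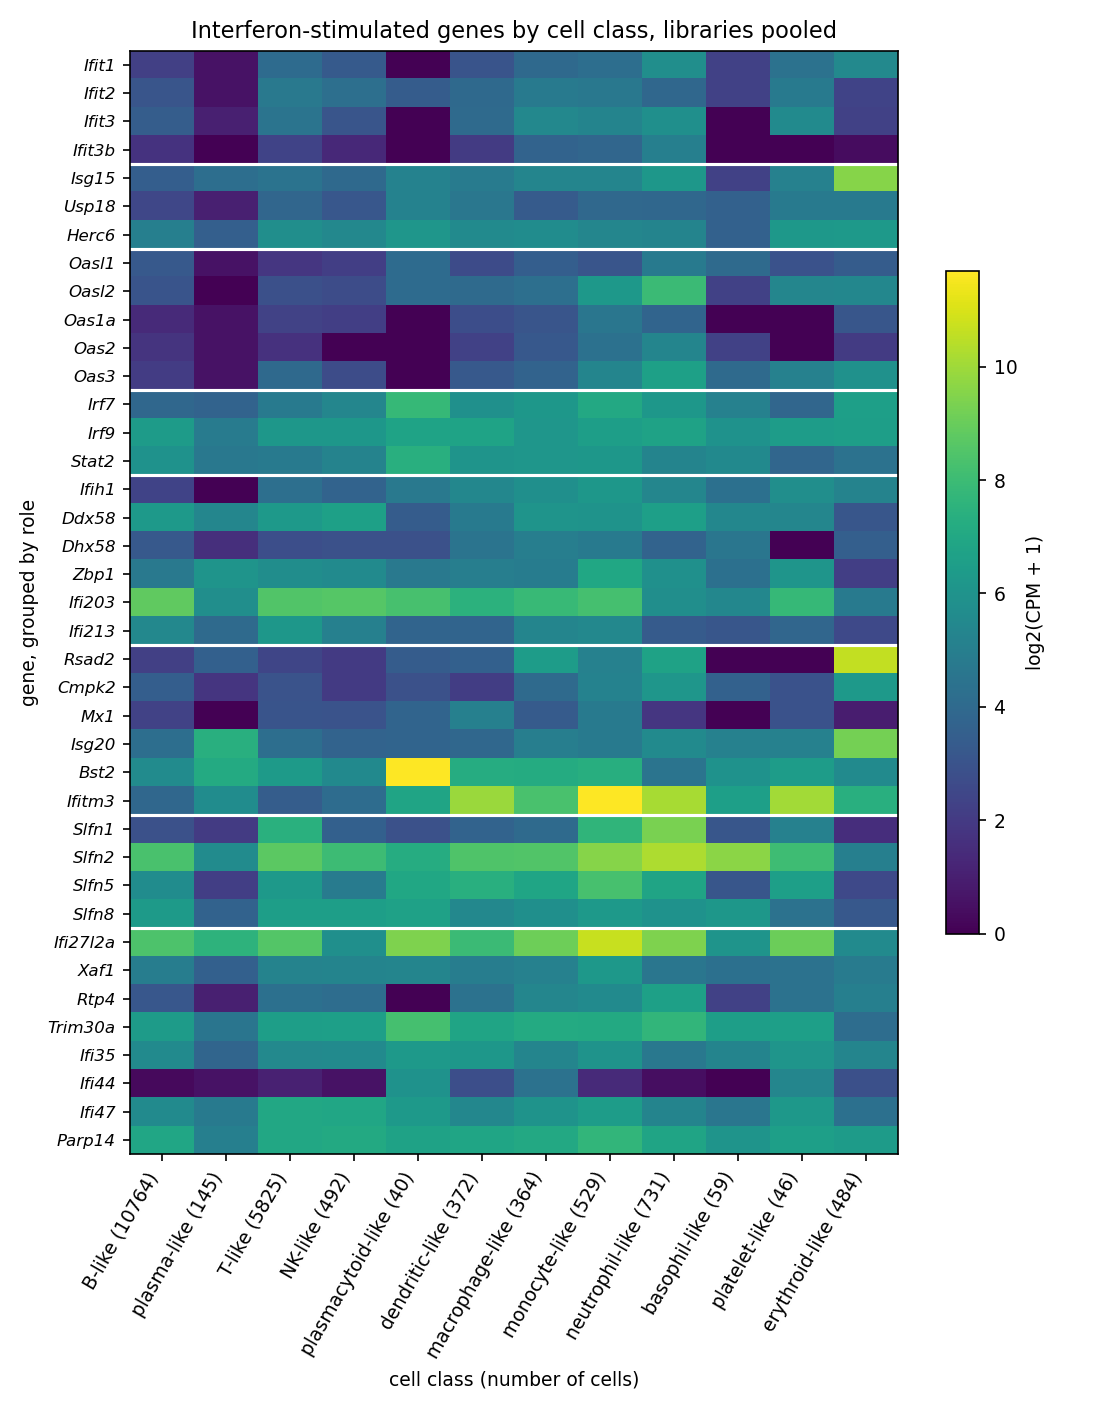
Level of each of the 39 interferon-stimulated genes (rows, grouped by role) in each of 12 cell classes (columns), all libraries pooled, as the colour of log2(CPM + 1). Brighter colours are higher levels. Bst2 is brightest in plasmacytoid-like cells (3284 CPM), Ifitm3 in monocyte-like cells (3282 CPM), and Rsad2, Isg15 and Isg20 in erythroid-like cells.

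Bst2 showed the largest difference between its highest and its second class. It had 3284 CPM (3086 to 3491) in plasmacytoid-like cells, 159 CPM in monocyte-like cells and 21.4 CPM in neutrophil-like cells, a ratio of 20.7 between the first and the second. It is also known as the plasmacytoid surface antigen PDCA-1 in mice. The transcription factors followed the same class: Irf7, the master factor of interferon alpha transcription, had 227 CPM (177 to 287) there against 133 in monocyte-like cells, and Stat2 had 166 CPM (124 to 218) against 72.4. Irf9 was nearly level, with 109 CPM in plasmacytoid-like and 107 CPM in dendritic-like cells, whose intervals overlap. Trim30a, a regulator of Toll-like receptor signalling, had 298 CPM in plasmacytoid-like cells and 207 in neutrophil-like cells. In contrast, Ifit1, Ifit3, Ifit3b, Oas1a, Oas2, Oas3 and Rtp4 had no UMI in the 40 plasmacytoid-like cells.

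Neutrophil-like cells led the oligoadenylate synthetase (OAS) genes, whose products sense double-stranded RNA and activate RNase L. Oasl2 had 247 CPM (228 to 266) in them and 73.7 CPM in monocyte-like cells. Oas3 had 99.5 CPM against 59.8 in erythroid-like cells, and Oas2 had 38.8 CPM against 19.6 in monocyte-like cells. Oasl1 had 25.9 CPM, with an interval that overlaps that of plasmacytoid-like cells, and Oas1a was the exception, with 22.9 CPM in monocyte-like cells and 12.6 in neutrophil-like cells. The IFIT genes had their maxima in the same cells for Ifit1 (52.9 CPM), Ifit3 (54.7 CPM) and Ifit3b (32.2 CPM), but of these the interval was apart from the next class in Ifit3b only.

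The Schlafen family was split between classes. Slfn1 had 652 CPM in neutrophil-like cells, 199 in monocyte-like, 168 in T-like and 6.3 in B-like cells, so that lymphocytes of the 2 kinds differed more than T-like cells and monocyte-like cells did. Slfn2 had 1203 CPM in neutrophil-like cells and was counted in every class, from 31.5 CPM in erythroid-like cells upwards. Slfn5 had 308 CPM in monocyte-like cells and 167 in dendritic-like cells. Slfn8 was at similar levels in plasmacytoid-like (102 CPM), T-like (94.0 CPM), NK-like (91.9 CPM) and B-like cells (82.5 CPM).

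Monocyte-like cells led Ifitm3, with 3282 CPM (3224 to 3341) against 1144 in neutrophil-like cells and 9.8 in T-like cells, and Ifi27l2a, with 1640 CPM (1599 to 1681). They also led Zbp1, a sensor of Z-form nucleic acid, at 125 CPM, Xaf1 at 73.2 CPM, Ifih1 (MDA5, a sensor of long double-stranded RNA) at 71.0 CPM and Parp14 at 206 CPM. Lymphocytes led few genes. Ifi203 was highest in B-like cells (458 CPM, 451 to 465), followed by NK-like (393) and T-like cells (358), Ifi213 of the same family was highest in T-like cells (71.3 CPM), and Ifi47 was at 126 CPM in T-like and 120 CPM in NK-like cells. Ddx58 (RIG-I, a sensor of RNA ends) ranged from 62.4 to 97.9 CPM in the B-like, T-like, NK-like, neutrophil-like, monocyte-like and macrophage-like classes and stood at 7.8 CPM in erythroid-like cells.

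Erythroid-like cells, the nucleated precursors of red cells, held high levels of 3 genes. Rsad2 (viperin), which makes a chain-terminating nucleotide, had 1550 CPM (1507 to 1594) in the 484 cells against 105 CPM in neutrophil-like cells, a ratio of 14.8. Isg15, a ubiquitin-like modifier, had 744 CPM (715 to 775) against 71.4, and the exonuclease gene Isg20 had 605 CPM (578 to 633) against 163 in plasma-like cells. These 3 genes stand far above the other classes, whereas 10 other genes of the list, among them Ifi203 (27.4 CPM), Ifi27l2a (46.4 CPM), Slfn1 (1.9 CPM), Slfn2 and Zbp1 (3.4 CPM), had their lowest class in erythroid-like cells. The antibody against erythroid cells took 5.90% of the antibody counts of erythroid-like cells and 0.530% of those of B-like cells, so the surface protein follows the class name.

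In library 1 the 414 erythroid-like cells had 1649 CPM of Rsad2 (1602 to 1697), 826 CPM of Isg15 (792 to 860) and 635 CPM of Isg20 (606 to 665). In library 2, 19 cells gave 299 CPM of Rsad2 (204 to 422), 46.7 of Isg15 (15.2 to 109) and 289 of Isg20 (197 to 411). In library 3, 51 cells gave 1046 CPM of Rsad2 (931 to 1172), 203 of Isg15 (154 to 262) and 430 of Isg20 (358 to 513). Library 1 was thus the highest and library 2 the lowest for all 3, with intervals apart for Rsad2 and Isg15 in every pair. The libraries hold different erythroid clusters: 383 of 399 cells of a cluster led by Slc4a1 were in library 1, and a cluster of 85 cells led by haemoglobin genes was spread over the libraries with 31, 15 and 39 cells. Within the haemoglobin-led cluster, library 1 had 810 CPM of Isg15 (697 to 937) where library 3 had 112 (72.4 to 165), in the same order Rsad2 had 1967 (1788 to 2159) and 855 (738 to 985), and Isg20 had 632 (532 to 745) and 385 (308 to 475).

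When the erythroid-like cells were clustered more finely, the level differed between groups. A cycling group of 205 cells, with 4386 CPM of the proliferation gene Mki67, had 632 CPM of Rsad2 and 438 CPM of Isg15. A group of 188 cells, with 1059 CPM of Mki67, had 3815 CPM of Rsad2 (3683 to 3951), 1662 CPM of Isg15 (1575 to 1752) and 133 CPM of Ifit1. The haemoglobin-led group of 85 cells, with 45.4 CPM of Mki67, had 1259 CPM of Rsad2 and 399 of Isg15. With the libraries pooled, the highest level of Rsad2 and Isg15 was in the group with an intermediate level of Mki67. Library 1 held 198 of the 205 cells, 180 of the 188 and 31 of the 85, so the groups also differ in library. The part of the libraries in this order was not tested. Isg20 varied less, from 486 to 749 CPM over the 3 groups.

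Over all kept cells, 35 of the 39 genes had a mean of at least 5 CPM over the libraries. Called below means that libraries differ at least 1.5-fold with intervals apart. By that rule 17 of the 35 were called in at least 1 pair of libraries, and 23.0% of 9713 genes were. Library 1 was higher than library 2 in 13 (9.28% of all genes) and higher than library 3 in 11 (9.96%). The largest differences were those of Rsad2, at 250.7, 5.45 and 17.3 CPM, Isg15, at 145, 11.8 and 20.0 CPM, and Isg20, at 116, 19.7 and 24.8 CPM. They were followed by Oasl2, at 39.7, 8.61 and 15.3 CPM, Ifitm3 (448, 144 and 175 CPM) and Irf7 (51.8, 22.2 and 29.3 CPM). In all 6, library 1 was the highest and library 2 the lowest. The called genes with the opposite order were 4 of the 35, against 10.5% of all genes: Ifi203, Ifi213, Slfn8 and Stat2 were higher in library 3 than in library 1.

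The mixture of classes moved with these values. Erythroid-like cells held 92.4% of the Rsad2 UMIs of library 1, 80.2% of the Isg15 UMIs and 76.8% of the Isg20 UMIs. In library 2 they held 18.2%, 1.31% and 4.88%, and in library 3 48.3%, 8.11% and 13.9%. For Oasl2, neutrophil-like cells held 57.6% of the UMIs in library 1, 19.4% in library 2 and 28.3% in library 3, and for Ifitm3 they held 30.1%, 3.03% and 3.99%. With each class set to its share over all libraries, 11 of 35 genes were called, against 10.0% of all genes. Library 1 was higher than library 2 in 10 of them (3.36% of all genes), and Isg15 was also higher in library 1 than in library 3 (5.46%). Without this setting library 3 was higher than library 2 in 5 genes (1.42% of all genes). With it, the called genes of this pair were Ifit1, Isg15, Oasl1, Oasl2, Rsad2 and Cmpk2. The share of all genes is not given for this pair at this setting, so the list cannot be set against a background. Rsad2 then had 72.7, 16.7 and 50.4 CPM and Isg15 56.0, 13.3 and 26.1 CPM. The stacked bars of contributions show the same 6 genes by class.

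The libraries were therefore compared within each class that had at least 50 cells in every library. Free RNA of other cells moves with the libraries too and its part was not tested: in B-like cells, S100a8, a neutrophil gene, had 229, 19.3 and 32.4 CPM in libraries 1, 2 and 3, and the haemoglobin gene Hba-a1 had 214, 22.2 and 100 CPM.

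In neutrophil-like cells 21 of 37 genes tested were called, and 35.0% of all genes were. Library 1 was higher than library 2 in 15 (4.72% of all genes) and library 3 higher than library 2 in 5 (0.753%). Library 2 was the lowest of the 3 for 27 of the 37 genes (20.4% of all genes). The median log2 ratio of library 1 over library 2 was 0.99 over the genes tested and −0.54 over all genes. S100a8 stood at 117093, 50425 and 42043 CPM in libraries 1, 2 and 3. Ifit1 had 66.4 CPM (55.2 to 79.3) in library 1, 11.6 (3.17 to 29.8) in library 2 and 32.4 (18.9 to 51.9) in library 3. Cmpk2, the nucleotide kinase gene next to Rsad2, had 88.2 (75.2 to 103), 17.5 (6.404 to 38.0) and 42.0 (26.3 to 63.6) CPM. Zbp1 had 73.5, 17.5 and 22.9 CPM, Ifih1 47.9, 11.6 and 34.3 CPM, and Ifi47 44.1, 11.6 and 30.5 CPM. In these 5 genes library 1 was the highest and library 2 the lowest, with the intervals of those libraries apart.

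Ifi203 had the opposite order in neutrophil-like cells, with 23.4 CPM (16.9 to 31.5) in library 1, 90.2 (61.3 to 128) in library 2 and 137 (107 to 173) in library 3. Ifitm3 had 1472, 410 and 477 CPM, Ifi27l2a 777, 361 and 550 CPM, and Oasl2 249, 157 and 296 CPM. The class is not the same mixture in each library: of 136 cells of an immature cluster led by Ngp, Camp and Ltf, 134 were in library 1. Without it 27 genes were called, and library 1 was higher than library 2 in 25 (2.14% of all genes). In the mature cluster of 595 cells alone (239, 147 and 209 cells), Oasl2 had 677 CPM (612 to 749) in library 1, 164 (123 to 214) in library 2 and 297 (252 to 347) in library 3, and Rsad2 had 237, 48.7 and 132 CPM. Isg15 had 204 CPM (168 to 244), 33.5 (16.7 to 59.9) and 51.7 (34.1 to 75.2), and Ifi27l2a 1878, 377 and 551 CPM. The order of the libraries was thus 1, 3 and 2 for these 4 genes, with intervals apart between libraries 1 and 2.

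**Figure D2:**
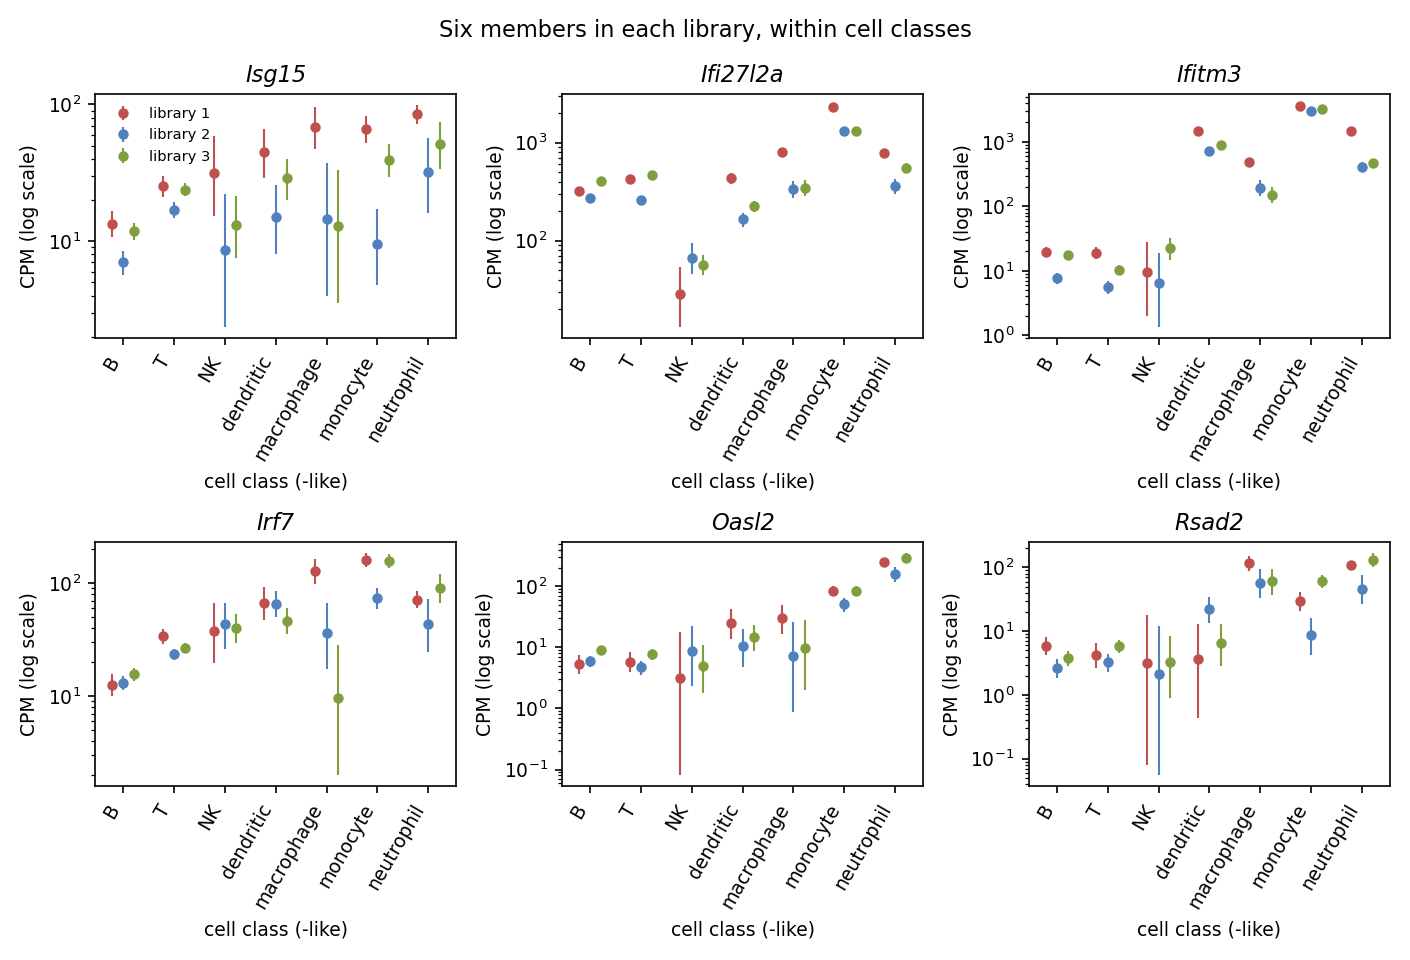
Level of 6 genes (panels) in libraries 1, 2 and 3 within 7 cell classes, in CPM on a log axis, with exact Poisson 95% intervals (values of 0 are not drawn). Library 2 is the lowest for Isg15 in neutrophil-like (32.0 CPM) and monocyte-like cells (9.60 CPM).

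In monocyte-like cells 17 of 38 genes were called, and 11.4% of all genes were. Library 2 was the low one: library 1 was higher than library 2 in 12 (2.31% of all genes), and library 3 in 12 (1.48%). Library 2 was the lowest for 32 of the 38 (26.6% of all genes). The median log2 ratio of library 3 over library 2 was 0.59 over these genes and 0.01 over all genes. Isg15 had 66.0 CPM (52.3 to 82.1), 9.60 (4.79 to 17.2) and 39.0 (29.2 to 51.0). Rsad2 had 29.7 (20.8 to 41.1), 8.73 (4.19 to 16.1) and 60.4 (48.0 to 74.9) CPM, and was the one of these that was highest in library 3 with its interval apart from both others. Ifi47 had 134, 37.5 and 84.7 CPM, Ifit2 33.8, 10.5 and 27.2 CPM, Ifi213 46.2, 23.6 and 57.4 CPM, and Ifit3 37.1, 21.8 and 53.0 CPM. Irf7 had 160 CPM in library 1 (138 to 184), 74.2 in library 2 (59.3 to 91.8) and 158 in library 3 (138 to 181), so that libraries 1 and 3 did not differ beyond counting error. Ifi27l2a had 2332, 1305 and 1304 CPM, where libraries 2 and 3 did not differ beyond counting error.

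In macrophage-like cells 6 of 39 genes were called, and 7.85% of all genes were. All 6 were higher in library 1 than in library 2 (1.94% of all genes), and 5 of them were higher than in library 3 (2.5%). Irf7 had 128 CPM (98.9 to 164), 36.3 (17.4 to 66.7) and 9.67 (1.99 to 28.2), and Isg15 68.3, 14.5 and 12.9 CPM. Xaf1 had 52.2, 7.26 and 29.0 CPM, and Ifitm3 490, 192 and 151 CPM. Bst2 and Ifi27l2a were the other two. Ifit2 (38.2, 10.9 and 19.3 CPM), Zbp1 (30.1, 43.6 and 12.9 CPM) and Rtp4 (60.2, 18.2 and 25.8 CPM) were not called. These cells carry erythroid RNA, with 16380, 17220 and 10088 CPM of the haemoglobin gene Hbb-bs, and Rsad2, at 116, 58.1 and 61.2 CPM, was not called in them.

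In dendritic-like cells 5 of 36 genes were called, and 8.67% of all genes were. Ifi27l2a had 431 CPM (378 to 490), 164 (138 to 193) and 223 (198 to 252), Ifitm3 1496, 727 and 884 CPM, and Isg15 45.1, 15.03 and 28.7 CPM, with library 1 the highest. Slfn8 had 41.5, 25.4 and 55.0 CPM and was highest in library 3. Ddx58 (12.6, 26.6 and 34.5 CPM) and Rtp4 (30.7, 15.03 and 19.7 CPM) were not called. Rsad2 was the highest in library 2, with 3.61 CPM (0.44 to 13.04), 21.96 (13.2 to 34.3) and 6.57 (2.84 to 12.95). Haemoglobin RNA in the same cells was also highest in library 2, with 106, 494 and 24.6 CPM of Hba-a1, and its part was not tested. In NK-like cells 2 of 32 genes were called, Slfn5 and Rtp4, and 4.96% of all genes were. Slfn5 had 6.35 CPM (0.77 to 22.9), 23.8 (11.9 to 42.5) and 35.4 (25.6 to 47.7), and Stat2 had 12.7, 43.2 and 39.5 CPM with overlapping intervals.

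In B-like cells library 3 was the highest for 23 of 29 genes tested (43.2% of all genes). Of the 29, 10 were called, and 8.61% of all genes were. Library 3 was higher than library 1 in 6 (3.5% of all genes) and higher than library 2 in 6 (0.785%). Slfn8 had 52.6 CPM (47.2 to 58.5), 79.6 (75.1 to 84.3) and 97.5 (92.7 to 102), with all 3 intervals apart. Stat2 had 45.7 (40.7 to 51.2), 54.9 (51.2 to 58.9) and 72.0 (67.9 to 76.4) CPM. Ifi27l2a, at 323, 272 and 407 CPM, missed the limit of 1.5, as did Xaf1 (24.0, 28.6 and 32.8 CPM), Trim30a (69.9, 78.4 and 94.9 CPM) and Ifi213 (34.9, 41.8 and 46.5 CPM). The effector Isg15 had 13.5, 6.995 and 11.8 CPM, where libraries 1 and 3 overlapped, and Ifitm3 19.4, 7.62 and 17.5 CPM. With each B-like cluster set to its share over all libraries, Slfn8 (64.4, 79.5 and 94.7 CPM) and Stat2 (54.0, 55.1 and 69.8 CPM) were no longer called, and library 3 was higher than library 1 in 1 gene (1.49% of all genes) and than library 2 in 7 (0.829%). Neither was called in B cells gated by antibodies. In that gate library 3 was higher than library 1 in 0 genes (2.09% of all genes) and than library 2 in 3 (0.998%). Called there were Isg15 (32.7, 8.14 and 13.5 CPM), Rsad2 (53.3, 4.54 and 9.77 CPM), Isg20 and Ifitm3, with library 1 the highest. Rtp4 was also called, with library 3 the highest. Of the cells in the gate, 95.8% were B-like by class. In B-like cells Rsad2 had 5.96, 2.63 and 3.74 CPM, far below its level in the gate in library 1. The part of the other cells in the gate was not tested. The values of Isg15 and Ifitm3 in B-like cells are low, and the S100a8 of free RNA above was also lowest in library 2.

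In T-like cells 9 of 33 genes were called, and 13.1% of all genes were. Library 3 was higher than library 2 in 6 (2.46% of all genes), and library 2 was the lowest for 27 of the 33 (31.2%). Slfn5 had 56.2 CPM (49.9 to 63.1), 64.9 (60.6 to 69.5) and 102 (96.8 to 108). Ifi27l2a had 429 (411 to 447), 262 (254 to 271) and 472 (460 to 484) CPM, and Ifi213 68.5, 56.4 and 87.0 CPM. Isg15, at 25.2, 16.9 and 23.8 CPM, Irf7, at 34.1, 23.5 and 26.9 CPM, and Slfn8, at 88.9, 78.3 and 111 CPM, were not called. Mx1, a GTPase that blocks influenza viruses, had 10.5, 8.86 and 4.27 CPM and was the gene lower in library 3 than in both others. T-like cells are also mixtures: a cluster of naive CD4 T-like cells had 514 CPM of Ifi27l2a and 136 CPM of Slfn5, and regulatory T-like cells had 1265 CPM of Ifi27l2a, whereas memory CD8 T-like cells had 71.9 CPM. With each cluster set to its share over all libraries, 5 of 33 genes were called in T-like cells, against 6.24% of all genes, and library 3 was higher than library 2 in 1 (1.09%). Mx1 then had 6.61, 6.76 and 6.38 CPM and was not called.

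**Figure D3:**
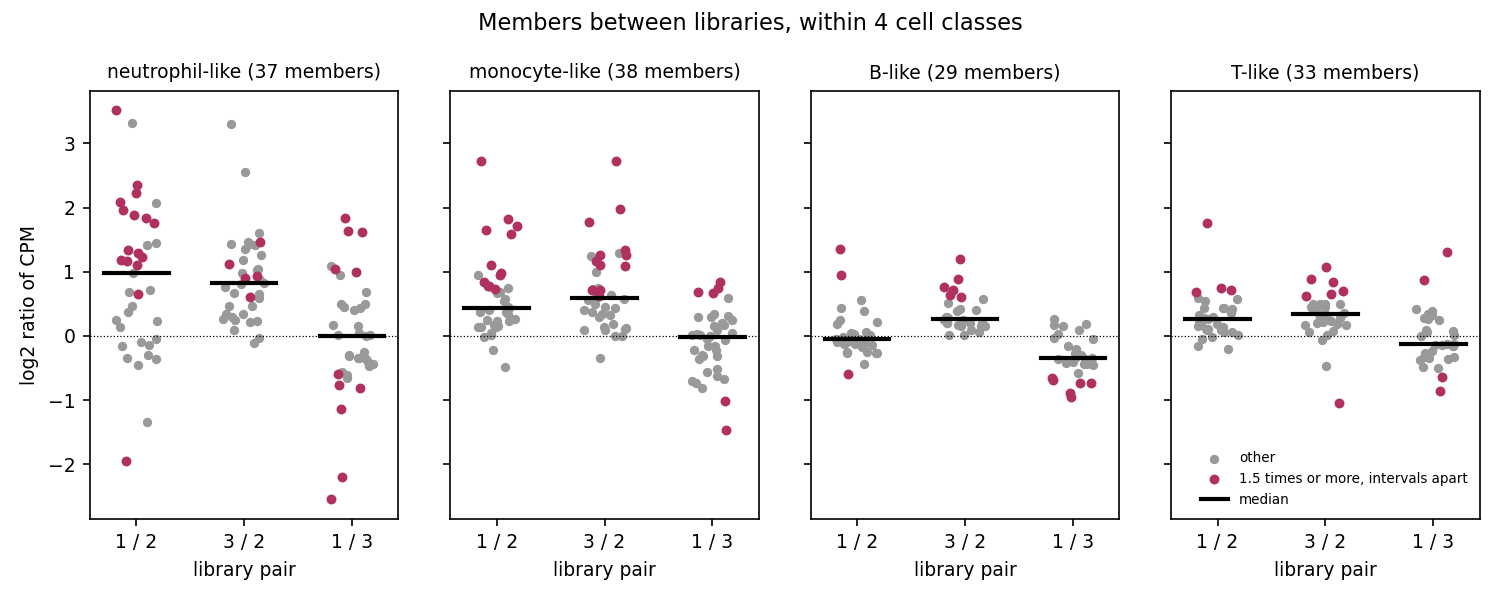
Log2 ratio of each interferon-stimulated gene between pairs of libraries (1 over 2, 3 over 2 and 1 over 3) in neutrophil-like, monocyte-like, B-like and T-like cells. Points are genes, bars are medians and colour marks called genes. Points lie mostly above 0 for 3 over 2 in all 4 classes, with medians of 0.82, 0.59, 0.27 and 0.34.

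The pattern per cell was read from 17 genes that type I interferon is known to induce together: Ifit1, Ifit2, Ifit3, Ifit3b, Isg15, Rsad2, Usp18, Oasl1, Oasl2, Cmpk2, Irf7, Rtp4, Ifi44, Mx1, Oas1a, Oas2 and Oas3. Each cell was thinned to 1000 UMIs, leaving out 1589 cells with fewer, and the number of these genes with a UMI was counted. At least 3 of the 17 had a UMI in 277 of 18572 cells (1.49%, 1.32 to 1.68), while 86.4% of cells had none. These are called multi-gene cells below. They are a range of a score and not a cell type: 137 cells had exactly 3 of the genes, and 381 had exactly 2. The share was 4.06% (3.45 to 4.74) in library 1, 0.612% (0.441 to 0.826) in library 2 and 1.03% (0.823 to 1.28) in library 3. Without thinning it was 14.8%, 3.65% and 5.42%. Library 1 stands above both others, and the intervals of libraries 2 and 3 overlap slightly.

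The highest shares were in erythroid-like and neutrophil-like cells. Those classes gave most of the multi-gene cells of library 1 (78 and 46 of 153), but 0 and 5 of 42 in library 2 and 1 and 17 of 82 in library 3, where B-like and T-like cells gave 19 and 10 and 29 and 22. In erythroid-like cells the share was 18.1% (14.6 to 22.1), with 78 of 367 cells in library 1, 0 of 18 in library 2 and 1 of 51 in library 3. Rsad2 and Isg15, at 1550 and 744 CPM in this class, are among the 17 genes, and their part in the share was not tested. Ifit2, Ifit3, Ifit3b and Mx1 had only 13, 12, 1 and 3 UMIs in these cells. In neutrophil-like cells it was 10.95% (8.604 to 13.7), with 14.2% (10.6 to 18.5) in library 1, 4.03% (1.32 to 9.16) in library 2 and 9.83% (5.83 to 15.3) in library 3. In monocyte-like cells it was 4.25% (2.68 to 6.36), and the intervals of the 3 libraries overlapped. In lymphocytes such cells were rare, with 40 of 5652 T-like cells (0.708%, 0.506 to 0.962) and 54 of 9879 B-like cells (0.547%, 0.411 to 0.713). None of 140 plasma-like cells, at a median depth of 12922 UMIs before thinning, were multi-gene cells (0 of 140, which allows a share of up to 2.14% at 3 counts, with an upper binomial bound of 2.60%), and the median depth of T-like cells was 5206 UMIs. Without erythroid-like cells, the share in library 1 was 2.20%.

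The 22 other interferon-stimulated genes, which took no part in choosing these cells, were then set against the remaining cells of the same class. In B-like cells all 22 were higher by at least 1.5-fold with intervals apart, and 4.39% of genes outside the 17 were. Slfn5 had 1098 CPM (957 to 1253) in the 54 multi-gene cells and 43.7 CPM (41.6 to 45.9) in 9825 others. Ifi27l2a had 1950 against 334 CPM, Ifi203 1694 against 447, Trim30a 581 against 80.95 and Isg20 216 (156 to 290) against 16.7. The median log2 ratio was 2.82 over the 22 genes and 0.06 over all genes. Library 2 alone gave 19 of 22 and library 3 alone 21 of 22, and library 1 had 6 such cells. The multi-gene B-like cells held 0.547% of the cells of the class and 12.3% of its Slfn5 UMIs. They also held 38.3% of the Rsad2 UMIs and 47.7% of the Ifit1 UMIs, both by the way the cells were chosen.

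T-like cells showed the same, with 21 of 22 genes higher (3.64% of all genes) and a median log2 ratio of 2.21 against 0.04. Slfn5 had 1032 CPM (902 to 1177) in 40 cells against 72.6, Zbp1 436 against 49.2, Slfn1 743 against 164 and Isg20 252 against 16.1. The exception was Ifitm3, at 13.8 CPM (2.84 to 40.2) against 9.62. In monocyte-like cells 21 of 22 were higher (3.21% of all genes), with Ifitm3 at 4985 against 3208 CPM and Slfn5 at 1177 against 267, and Irf9 was the exception at 90.1 against 92.6 CPM. In neutrophil-like cells 17 of 22 were higher (5.54% of all genes), led by Slfn5 at 758 against 58.5 and Ifi47 at 232 against 22.2 CPM. Library 1 alone gave 17 and library 3 alone 11, where Zbp1 was at 0 against 26.6 CPM. The 9 neutrophil markers summed to 173395 CPM in these cells and 271068 in the others, and the 9 monocyte markers to 258 and 2057 CPM. Of these multi-gene cells, 62 were among 487 cells of the mature cluster and 6 among 134 of the immature cluster. The mature cluster had 197 CPM of Slfn5 and 59.1 of Ifi47, and the immature one 20.3 and 13.2. The part of this mixture in the differences was not tested. Of the 5 genes not higher in multi-gene neutrophil-like cells, Ifi203, which had its highest class in B-like cells, was at 20.2 against 56.0 CPM. Slfn5 was thus higher in all 4 classes.

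Erythroid-like cells differed from the other 4 classes. Of 20 genes tested 9 were higher (5.22% of all genes). Ifi27l2a was lower, at 20.2 against 49.8 CPM, as were 19.9% of all genes, and the median log2 ratio was 0.94 over the 20 genes and −0.53 over all genes. In library 1 alone, which held 78 of the 79 cells, 7 genes were higher and Ifi27l2a (20.4 against 41.9 CPM) was not called lower. The 9 included Herc6, the ligase gene of mouse ISG15, at 239 (194 to 293) against 50.1 CPM, Irf9 at 222 (178 to 273) against 70.3, Parp14 at 244 against 60.2 and Stat2 at 68.0 against 11.9. Isg20 stood at 680 CPM (602 to 767) in the 79 multi-gene cells and at 596 (568 to 625) in the 357 others, so its high level was shared by both. Slfn5 was at 5.04 and 5.05 CPM. The plot of multi-gene cells against other cells shows the points of B-like and T-like cells above the diagonal and those of erythroid-like cells nearer to it.

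**Figure D4:**
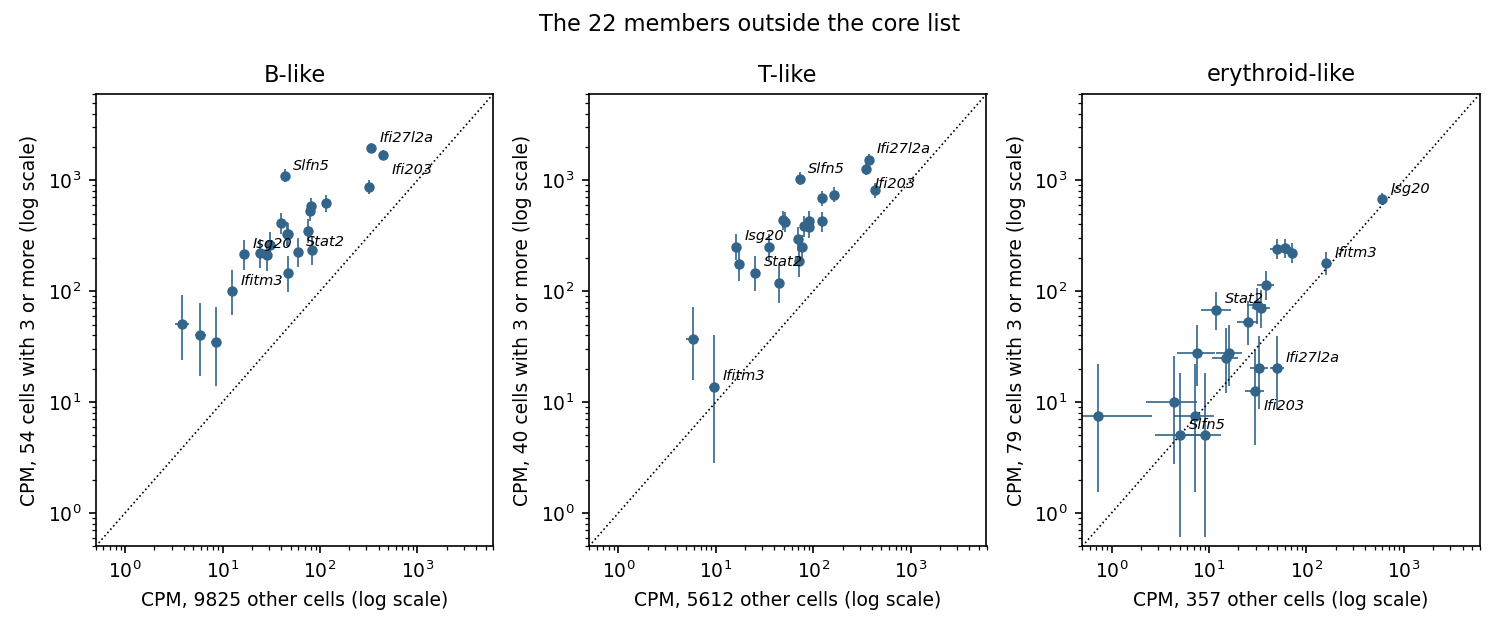
Level of the 22 genes not used for the choice in multi-gene cells (vertical) and in the other cells of the class (horizontal), in CPM on log axes, for B-like, T-like and erythroid-like cells. Bars are exact Poisson 95% intervals, the dotted line marks equal levels, and genes at 0 in either group are not drawn. In B-like cells all 22 lie above it.

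Depth, doublets and other cells were set beside these results. The median depth of multi-gene B-like cells was 4317, 3140 and 3248 UMIs in libraries 1, 2 and 3, against 3411, 3296 and 3343 in other B-like cells. In T-like cells it was 3461, 8318 and 5058 UMIs against 4942, 5553 and 5242. In monocyte-like cells it was 8399, 9128 and 6639 UMIs against 7572, 6982.5 and 6006.5. The doublet caller Scrublet marked 1 of the 54 multi-gene B-like cells and none of the 40 T-like cells. Of 7 T cell markers, 3 were higher in the multi-gene B-like cells, at 250.6 against 84.5 CPM summed, while the 7 B cell markers stood at 9612 against 9726 CPM. In multi-gene neutrophil-like cells the 6 plasma cell markers summed to 651 against 53.5 CPM, with 1 of them higher and 3 at 0. In multi-gene monocyte-like cells 4 of 6 platelet markers were higher, at 150 against 9.04 CPM summed. The part of these markers in the results was not tested.

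The surface antibodies showed small differences. Ly-6C, a surface protein of monocytes and of some T cells, took 23.6% of antibody counts in multi-gene monocyte-like cells and 19.8% in the others, and 9.53% against 16.5% in neutrophil-like cells. The last gap was large in library 3 (9.14% against 27.5%), smaller in library 1 (9.41% against 11.5%) and opposite in library 2 (12.5% against 9.83%), and the median counts per cell were 267.5 and 274. CD274 (PD-L1), a ligand that interferon is known to induce, took 0.753% against 0.890% in B-like cells and 1.01% against 1.04% in T-like cells. Class II MHC (I-A/I-E) took 17.5% in both groups of B-like cells.

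The spread over cells was measured for genes with a mean of at least 0.01 UMIs per thinned cell. The variance of UMIs over thinned cells divided by their mean is 1 for random sampling of cells that are alike. In neutrophil-like cells its median over interferon-stimulated genes was 1.32, 1.06 and 1.29 in libraries 1, 2 and 3, against 0.991 to 0.994 over all genes. In monocyte-like cells it was 1.24, 0.994 and 1.12 against 0.986 to 0.987, and in B-like cells 1.12, 1.09 and 1.12 against 1.03. In macrophage-like cells it was 0.978 in library 1, against 0.989 over all genes. The widest was Ifi27l2a in neutrophil-like cells, with 6.05, 6.83 and 3.65, and Rsad2 in the erythroid-like cells of library 1 had 5.06. The ratio depends on the level of a gene, and the medians run over 35, 25 and 34 genes in the neutrophil-like cells of libraries 1, 2 and 3, so they are no support apart from the levels.

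The upstream pathway was read from lists fixed with the genes above. Of 10 interferon ligand genes, 7 had no UMI in any kept cell, among them Ifna1, Ifna2 and Ifna4, and Ifnb1 had 1 UMI. Ifng, the ligand of the other pathway, had 366 UMIs, with 41.7 CPM (33.2 to 51.7) in NK-like and 7.95 CPM in T-like cells. Of 6 receptor genes, 5 were at 20 CPM or more, and Ifnar1 and Ifnar2 were highest in plasmacytoid-like cells, at 362 and 342 CPM. All 5 kinase genes and all 6 transcription factor genes outside the list were at 20 CPM or more.

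In multi-gene cells the targets differed and the signalling chain mostly did not. In B-like cells 11 of 13 interferon gamma-inducible GTPase genes and 14 of 16 other induced genes tested were higher, while 0 of 5 kinase genes and 0 of 5 receptor genes were. The transcription factor gene Irf1, which interferon itself induces, was higher (180 against 94.99 CPM). The GTPase gene Irgm1 had 296 against 40.9 CPM, and Ifnar1 had 115 (73.1 to 173) against 95.8. In T-like cells 11 of 13 GTPase genes and 16 of 17 other induced genes were higher, with Igtp at 413 against 67.4 CPM, and among receptors and kinases only Ifnar2 and Jak2. All 9 GTPase genes with a RefSeq promoter hold the ISRE core in it, and 6 of the 9 (66.7%) also hold the GAS core.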

How the data were processed

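Splenocytes of 3 groups were measured by CITE-seq on the 10x platform, as 1 library each from cells of 5 pooled mice. The deposited matrix holds raw UMI counts per gene or antibody and barcode, which the authors made with Cell Ranger (5.0.1 in the file header, build mm10) and joined into 1 file of 29005 barcodes. The labels and methods do not say whether that step subsampled libraries. The counts total 102118281 UMIs of RNA and were not normalised by the authors. The 39 genes, the 17 genes counted per cell and the pathway lists were chosen with earlier results of these data known.

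Cells with 300 to 5000 detected genes and at most 10% mitochondrial UMIs were kept. This removed 8844 barcodes and left 20032690, 32270524 and 35697547 UMIs in libraries 1, 2 and 3, and a count of 3 UMIs then corresponds to 0.150, 0.0930 and 0.0840 CPM. Among kept cells, 43 barcode sequences occur in more than 1 library. Scrublet marked 469 cells (2.33%), which were kept. Clusters were built from 2000 variable genes without the 39 genes, the pathway genes and receptor variable segments (20 principal components, 20 neighbours, Louvain resolution 0.8; scanpy 1.11.5) and named from marker lists where over 50% of a cluster's cells had that class as their top class. That naming limit was set after seeing the data, so class names are rebuilt and not the study's. A library difference was called at a ratio of at least 1.5 (0.5 counts added) with exact Poisson intervals apart, for genes with a mean of at least 5 CPM. Scripts were tested on simulated data. Python 3.11.15, numpy 2.4.6, scipy 1.17.1 and pandas 2.3.3 were used.

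Named genes were the 12 with most UMIs, up to 6 per class with the largest ratio between libraries at a mean of at least 20 CPM, up to 8 with the largest ratio between classes, and 2 to 4 per role. Other genes named beside a small count or as an exception were chosen after their values were seen. Alternatives were another fold limit and minimum level, means over cells, coarser and finer clusters, antibody gates, other thinning and each library left out. Some items are not reported here.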

Additional observations from a re-analysis of the deposited data

How the results depend on the processing

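No paired analysis was possible because each group is 1 library and no library could be tied to a group. Of the results that answer a comparison, 86 settings left the value within 1.5 times or within its interval and 28 moved it. Of the values of single genes between libraries, 687 did not move, 86 moved and 3 reversed. The reversed ones were Irf9 (−0.10) and Trim30a (−0.52), as log2 of library 3 over library 1 in neutrophil-like cells without the immature cluster, and Oasl2 (−0.10) in B cells gated by antibodies. With a fold limit of 2, 10 genes were called between libraries over all kept cells (8.51% of all genes), 1 in B-like (2.65%), 3 in T-like (5.17%) and 11 in monocyte-like cells (5.45%). With a minimum mean of 20 CPM these counts were 11 over all kept cells (17.7%), 2 in B-like (4.98%), 1 in NK-like (6.03%) and 3 in T-like cells (9.21%). With means over cells, which weight shallow cells more, 4 were called in NK-like (9.30%), 11 in dendritic-like (20.99%) and 15 in macrophage-like cells (20.95%). With each class at its pooled share 11 were called over all kept cells (10.0% of all genes). With each cluster at its pooled share 7 were called in B-like cells (4.49%) and 5 in T-like cells (6.24%), and with antibody gates 5 in B (7.54%), 12 in T (14.5%) and 17 in neutrophil cells (26.2%). Without library 1, 3 genes were highest in erythroid-like cells. The share of cells with several of the 17 genes in libraries 1, 2 and 3 was 9.23%, 1.30% and 2.78% at a limit of 2 genes, 1.91%, 0.291% and 0.605% at 4 genes, 6.73%, 1.31% and 2.46% when thinned to 2000 UMIs, and 14.8%, 3.65% and 5.42% when not thinned. Without erythroid-like cells it was 2.20% in library 1. Library 1 had the highest and library 2 the lowest share in each of the 4 settings that cover all libraries. The settings that leave out the immature cluster or erythroid-like cells, and those with each cluster at its pooled share, were chosen after seeing the data. Removing the mitochondrial limit within classes was not run, since removed barcodes have no class. Where a value moved, the cause was not tested. With 1 library per group no replicate could be left out, and depth limits values below about 10 CPM in classes of few cells.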

Other observations

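Genes of the interferon pathway outside the list differed between classes too. Irf8, a lineage factor of dendritic cells and monocytes, was highest in plasmacytoid-like cells, at 3419 CPM. Tlr7, which senses single-stranded RNA in endosomes, was also highest in plasmacytoid-like cells, at 154 CPM. The interferon gamma receptor gene Ifngr1 was highest in monocyte-like cells, at 959 CPM.

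Multi-gene neutrophil-like cells, which had at least 3 of the 17 genes in 1000 UMIs, had 702 CPM of the GTPase gene Gbp2 against 84.4 in the other neutrophil-like cells. Of 12 GTPase genes tested there, 9 were higher, and in erythroid-like cells 4 of 9 were. Multi-gene cells were shallower in some classes: in library 1 their median was 2309 UMIs against 3529 in neutrophil-like cells and 4786.5 against 6461 in erythroid-like cells. Of the multi-gene neutrophil-like cells, 62 were in the mature cluster and 6 in the immature one. The median depths of these clusters were 2165 and 8511.5 UMIs, and the part of this mixture was not tested.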
